A study of Homo sapiens with 18 samples.

Results

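Mitochondrial ribosomal proteins are described here as the genes whose symbol starts with MRPL (large subunit) or MRPS (small subunit) followed by a digit. This name rule matched 79 of the 23250 gene symbols listed, without use of any measured value. Of the 79, 47 MRPL and 29 MRPS symbols belong to protein-coding genes, and 3 are an antisense transcript and 2 pseudogenes (MRPL23-AS1, MRPL42P5 and MRPL45P2). A gene was tested where it reached 1 CPM (1 read per 1000000 reads of the library's total) in at least 3 of the 18 libraries, which 12769 genes did. All 47 coding MRPL genes and 28 of the 29 coding MRPS genes passed, so that 75 of the 76 coding members were tested. MRPS24 did not pass.

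The libraries are RNA-seq of total RNA from 3 established cell lines of human diffuse large B cell lymphoma, SUDHL6, Farage and SUDHL4. Each line was kept for 12 h with the solvent DMSO or with 10 µM of 79-6.1085, an inhibitor of the transcriptional repressor BCL6, and 3 libraries were made of each of the 6 groups. By its title the study concerns a Polycomb complex that BCL6 and EZH2 assemble together, and the comparison of inhibitor with DMSO asks which transcripts change when BCL6 is inhibited. Each line stands for 1 tumour. The labels do not say whether libraries of a group are separate cultures. The tests therefore see the spread of these libraries alone, and that spread may be technical. In bulk RNA, fewer cells of a type and less RNA per cell cannot be told apart.

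The mitochondrial ribosome translates the few messages of mitochondrial DNA, all of which encode core subunits of the respiratory chain and the ATP synthase. Its ribosomal RNAs come from mitochondrial DNA, whereas every protein of both subunits is encoded in the nucleus, made in the cytosol and imported. Some of these proteins are homologs of bacterial ribosomal proteins, and others arose with the mitochondrion. The large subunit joins amino acids and holds the exit tunnel for the nascent chain, and the small subunit reads the message. Germinal centre B cells and the lymphomas derived from them divide fast, and BCL6 represses transcription in them.

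Reads in listed genes ranged from 6289956 to 25492726 per library. Replicate 3 of both SUDHL6 groups was the shallowest, with 7359083 reads in DMSO and 6289956 with inhibitor, and in that last library 3 reads are worth 0.362 CPM. Libraries of a group differed beyond counting noise (a chi-square of their counts, divided by its degrees of freedom, lay at 1.82 to 50.2, the highest between the SUDHL6 inhibitor replicates 1 and 2), and none were identical. B cell markers (6 genes) summed to 2014 to 6613 CPM in every library and 10 markers of other cell types to 0 to 10.3 CPM, with 1 to 5 of those 10 genes at 0 throughout a group. The B cell sum was lower with inhibitor, at 5233 to 5513 CPM against 2083 to 3145 in SUDHL6, 3513 to 3673 against 2014 to 2130 in Farage and 6163 to 6613 against 4201 to 4319 in SUDHL4. Its part in the results was not tested.

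Most mitoribosomal protein transcripts were lower with inhibitor, in both subunits and in all 3 lines. In SUDHL6, 54 of 75 tested members fell and 1 rose (50 and 7 after scaling by the median of ratios), where 41.3% of all tested genes fell and 26.8% rose (34.8% and 33.1% after it). In Farage, 60 fell and 5 rose (52 and 12 after that scaling), against 46.5% and 25.4% of all genes (37.2% and 33.6%). In SUDHL4, 61 fell and 1 rose (46 and 8), against 46.2% and 24.3% (36.1% and 34.3%). The median log2 change of CPM + 1 over members was -0.59 in SUDHL6, -0.71 in Farage and -0.70 in SUDHL4, beside medians over all tested genes of -0.13, -0.22 and -0.21. Calls are those of limma with an adjusted p under 0.05 over all tested genes. The number called higher in SUDHL6 became 4 without its inhibitor replicate 1, and 2 with a block for the replicate number or without its DMSO replicate 1, its inhibitor replicate 2 or inhibitor replicate 3 of Farage. It became 3 in Farage without inhibitor replicate 3 of Farage, and 2 in SUDHL4 without inhibitor replicate 1 of SUDHL6 or inhibitor replicate 3 of any one line.

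The same members tended to be called in each line. On the CPM scale 51 of 75 members fell in each of the 3 lines, where 28.3% of all genes did. No member rose in all 3 on that scale, where 14.7% of all genes did. The 51 were 30 MRPL and 21 MRPS genes. After median-of-ratios scaling MRPL10, MRPL44 and MRPL47 were called higher in each of the 3 lines. Only 46 members were then called lower in SUDHL4, so fewer than 51 fell in all 3. The values of all 3 inhibitor libraries lay below all 3 DMSO libraries for 55 members in SUDHL6, 60 in Farage and 66 in SUDHL4 (36.5%, 53.2% and 51.6% of all genes). In the mean of the 3 lines 63 members fell and 3 rose, against 53.8% and 30.1% of all genes (83.9% in either direction), with a median of -0.63 beside -0.24 for all genes. The fall was at least 2-fold on the log2(CPM + 1) scale for 22 members, where 16.0% of all genes fell as far.

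The deposited CPM divide by a total that includes reads outside the listed genes, and the typical gene was lower with inhibitor on this scale. Scaling by the median of ratios moved the median of all genes in the mean of the lines from -0.24 to -0.05. Less the median of all genes, the members' median was -0.39 on the CPM scale and -0.34 on the scaled values. After that scaling 55 members were called lower and 11 higher, against 44.3% and 39.4% of all genes. The members' median lay below that of all genes on both scales, and some members gained or lost calls.

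**Figure D1:**
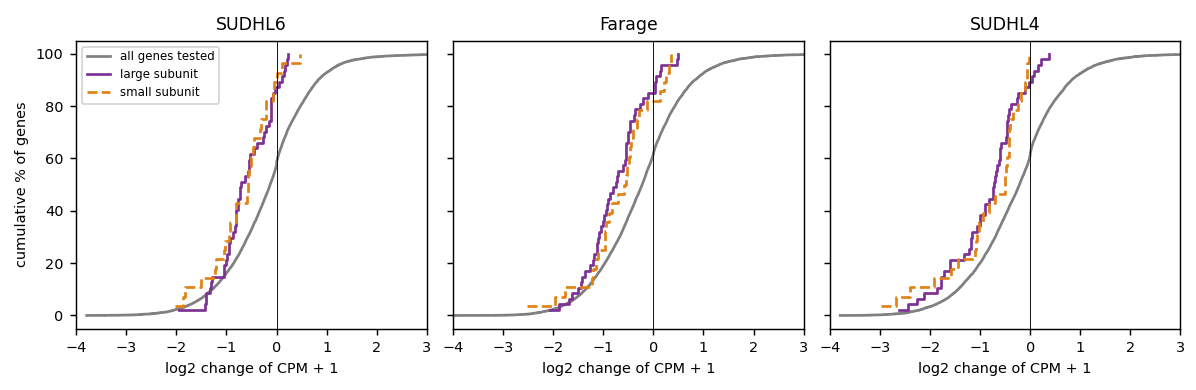
Cumulative percentage of genes (y axis) at or below each log2 change of CPM + 1, inhibitor against DMSO (x axis), in SUDHL6, Farage and SUDHL4. The grey line is all 12769 tested genes, the solid purple line the 47 MRPL and the dashed orange line the 28 MRPS members; genes beyond the x axis are not drawn. Both member lines lie left of the grey one over most of their range, with medians of -0.59 to -0.71 for all members.

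Summed over the subunit, the transcripts of the large subunit amounted to 2532 ± 27.3 CPM (SD, n = 3) in SUDHL6 with DMSO and 1720 ± 137 with inhibitor. In Farage the sums were 2216 ± 160 and 1422 ± 99.3 CPM, and in SUDHL4 2498 ± 111 and 1455 ± 50.3. The amount left was 67.9%, 64.2% and 58.3% of the DMSO mean. For the small subunit the sums were 1784 ± 21.5 and 1125 ± 120 CPM in SUDHL6, 1343 ± 70.5 and 888 ± 49.3 in Farage, and 1514 ± 56.1 and 944 ± 15.5 in SUDHL4. That left 63.1%, 66.1% and 62.3%. In every line and both subunits the inhibitor libraries lay below the DMSO libraries, with no overlap. These sums are on the CPM scale. The median-of-ratios factors were lower with inhibitor, at 0.967 to 1.08 against 1.12 to 1.19 in SUDHL6. They were 0.901 to 0.932 against 1.07 to 1.10 in Farage and 0.860 to 0.881 against 1.05 to 1.08 in SUDHL4. After that scaling the falls of the sums would be smaller.

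The ratio of large to small subunit transcripts did not move one way. It was 1.42 ± 0.00769 with DMSO and 1.53 ± 0.0447 with inhibitor in SUDHL6, where the lowest inhibitor library (1.51) lay above the highest DMSO library (1.43). In SUDHL4 it was 1.65 ± 0.0200 and 1.54 ± 0.0334, with all inhibitor libraries below all DMSO libraries. In Farage it was 1.65 ± 0.0318 and 1.60 ± 0.0232, and the groups just overlapped, since the highest inhibitor library (1.6252) lay above the lowest DMSO library (1.6247). The balance of the summed transcripts by symbol thus shifted in opposite directions in SUDHL6 and SUDHL4. With the assignment by structure given below, the SUDHL4 groups overlapped (DMSO from 1.776, inhibitor up to 1.787). In SUDHL6 the small subunit lost more of its sum, although the large subunit had the lower median log2 change.

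**Figure D2:**
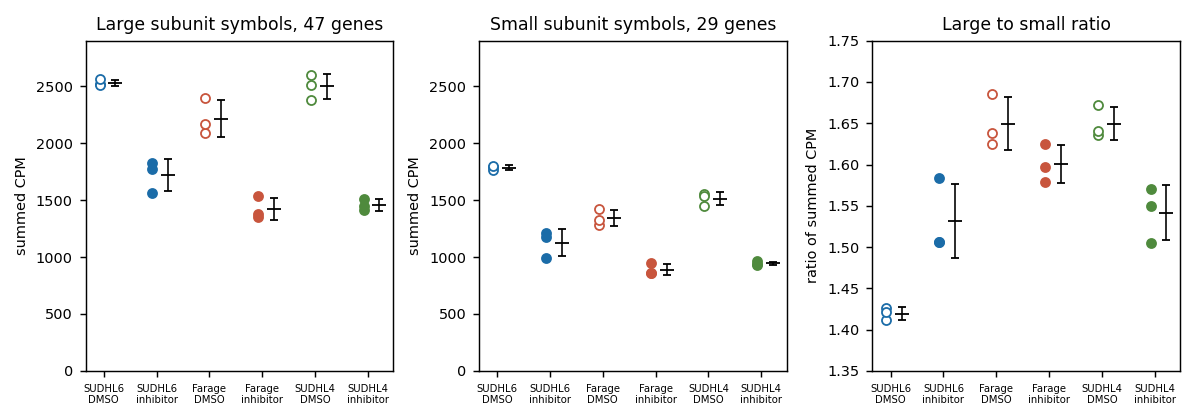
Summed CPM of the 47 MRPL and the 29 MRPS coding genes (left and centre, y axis from 0) and the ratio of the sums (right, y axis not from 0) in each library of the 6 groups (x axis). Open circles are DMSO, filled circles inhibitor, and the bars give mean and SD of 3 libraries; the sums fell in every line, to between 58.3% and 67.9% of the DMSO mean, and the mean ratio was 1.42 with DMSO and 1.53 with inhibitor in SUDHL6.

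Among large subunit genes, 41 of 47 fell and 2 rose when the lines were averaged, where 53.8% and 30.1% of all tested genes did. After median-of-ratios scaling 34 were called lower and 5 higher, against 44.3% and 39.4% of all tested genes. The large subunit median was -0.67. MRPL12, the homolog of the bacterial stalk protein that recruits translation factors, fell the most. In SUDHL6 it measured 67.7, 79.3 and 68.1 CPM with DMSO and 16.7, 21.98 and 15.5 with inhibitor. In Farage the values were 63.5, 74.6 and 62.0 against 13.3, 14.0 and 18.3, and in SUDHL4 71.3, 67.6 and 58.7 against 13.7, 17.7 and 12.3. All 9 inhibitor libraries lay far below all 9 DMSO libraries, and the 3 lines started and ended at like levels. The log2 changes were -1.94, -2.07 and -2.11 (SE 0.152 each, limma adjusted p at most 1.94e-08). Per kilobase of exon, MRPL12 was among the 6 most abundant of 75 members in each line with DMSO (rank 6, 4 and 6 in SUDHL6, Farage and SUDHL4) and ranked 43, 36 and 38 with inhibitor. A readthrough gene overlaps MRPL12 on the same strand in the annotation, and the counting strand is not given in the sources used here.

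MRPL17 and MRPL27, homologs of bacterial large subunit proteins, came next. MRPL17 measured 73.3, 72.6 and 81.2 CPM in SUDHL6 with DMSO and 24.7, 28.5 and 31.3 with inhibitor. In Farage it went from 51.4, 60.9 and 54.3 to 16.9, 17.0 and 23.2 CPM, and in SUDHL4 from 46.2, 46.4 and 39.9 to 6.16, 7.01 and 5.92. No groups overlapped, and the lowest levels of all were in SUDHL4 with inhibitor. Its log2 change was -1.40 in SUDHL6, -1.51 in Farage and -2.62 in SUDHL4 (SE 0.121). MRPL27, whose bacterial counterpart reaches toward the peptidyl transferase centre, followed the same order. It fell from 48.3 ± 3.63 to 18.7 ± 0.807 CPM in SUDHL6, from 37.6 ± 3.201 to 11.03 ± 1.43 in Farage and from 31.1 ± 1.27 to 4.88 ± 0.189 in SUDHL4 (log2 changes -1.33, -1.69 and -2.45, SE 0.0967).

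MRPL40, a protein found only in mitochondrial ribosomes, and MRPL34, a homolog of a bacterial protein, complete the 5 largest falls of the large subunit. MRPL40 fell from 10.2 ± 0.497 to 5.51 ± 1.44 CPM in SUDHL6, from 21.5 ± 2.92 to 5.07 ± 0.635 in Farage and from 20.1 ± 1.49 to 4.81 ± 0.550 in SUDHL4. With inhibitor all 3 lines were thus near 5 CPM, and the smaller log2 change in SUDHL6 (-0.81, against -1.89 and -1.86) went with its lower DMSO level. MRPL40 overlaps HIRA and C22orf39 on the opposite strand. MRPL34 fell from 35.9 ± 9.19 to 14.1 ± 4.61 CPM in SUDHL6, from 27.5 ± 2.97 to 9.59 ± 1.99 in Farage and from 25.3 ± 2.41 to 7.05 ± 0.829 in SUDHL4.

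MRPL44 and MRPL49 were the large subunit genes that rose in the mean of the lines, where 5 were called higher after median-of-ratios scaling. MRPL44, which has the fold of an RNase III enzyme, measured 33.7, 34.8 and 32.7 CPM in SUDHL6 with DMSO and 34.9, 38.2 and 45.7 with inhibitor. In Farage it went from 37.3, 40.2 and 37.3 to 52.6, 49.9 and 59.8 CPM, and in SUDHL4 from 36.3, 36.3 and 38.2 to 42.7, 46.4 and 39.8. The inhibitor libraries lay above the DMSO libraries in every line, although only the rise in Farage passed the test (log2 0.49, SE 0.0947, limma adjusted p = 0.000225). In SUDHL6 and SUDHL4 the changes were 0.22 and 0.21 (adjusted p = 0.0521 and 0.0577), and both passed without inhibitor replicate 1 of SUDHL6 (adjusted p = 0.00989 and 0.0329). The SUDHL4 change also passed without inhibitor replicate 3 of any one line, the SUDHL6 change without that of Farage, and both after median-of-ratios scaling (0.50 and 0.39).

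MRPL49 measured 62.6, 80.9 and 70.1 CPM in Farage with DMSO and 89.7, 96.2 and 111 with inhibitor. In SUDHL4 it went from 47.8, 48.9 and 47.3 to 62.3, 64.1 and 61.5 CPM, again with no overlap. In SUDHL6 the groups overlapped, at 86.3, 83.4 and 87.6 against 67.7, 102 and 99.3 CPM. The log2 changes were 0.47, 0.38 and 0.04 (limma adjusted p = 0.00337, 0.0146 and 0.805), and the SUDHL6 change was 0.23 (adjusted p = 0.0454) without inhibitor replicate 1. FAU and SYVN1 overlap MRPL49 on the opposite strand, so reads of these genes may not be told apart.

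Among small subunit genes, 22 of 28 fell and 1 rose in the mean of the lines (21 and 6 after median-of-ratios scaling). Of all genes, 53.8% fell and 30.1% rose without that scaling. The small subunit median was -0.58. MRPS34, a protein without a bacterial homolog that the small subunit needs for its stability, fell more than any other member. In SUDHL6 it went from 69.7, 97.3 and 86.9 CPM with DMSO to 14.2, 28.2 and 19.2 with inhibitor. In Farage the values were 44.0, 51.7 and 40.4 against 6.58, 7.57 and 7.07, and in SUDHL4 62.0, 60.1 and 49.3 against 8.15, 8.01 and 7.82. The Farage and SUDHL4 inhibitor libraries all lay within 6.58 to 8.15 CPM, below every SUDHL6 library. The log2 changes were -2.03, -2.52 and -2.69 (SE 0.181, limma adjusted p at most 7.32e-08). Per kilobase of exon MRPS34 went from rank 3 of 75 members with DMSO to rank 36 with inhibitor in SUDHL6, from 14 to 62 in Farage and from 12 to 59 in SUDHL4.

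MRPS26, also specific to mitochondria, showed the largest fall of any member in a single line. In SUDHL4 it went from 30.5, 30.1 and 24.9 CPM to 2.43, 3.17 and 2.68, a log2 change of -2.97 (SE 0.164). In SUDHL6 it fell from 43.1, 53.4 and 34.8 to 9.12, 14.4 and 10.5 CPM and in Farage from 25.01, 24.2 and 21.6 to 5.604, 4.59 and 5.63. The groups lay apart in each line, with log2 changes of -1.86 and -1.97 in SUDHL6 and Farage. MRPS28, a relative of bacterial S1, fell in each line, and no difference between lines passed the test. It went from 37.8 ± 5.71 to 9.83 ± 0.978 CPM in SUDHL6, from 22.1 ± 1.80 to 5.79 ± 0.337 in Farage and from 28.0 ± 2.63 to 8.71 ± 0.580 in SUDHL4 (log2 changes -1.83, -1.76 and -1.58, SE 0.115).

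MRPS17 and MRPS23 fell most in SUDHL4. MRPS17, the homolog of a bacterial protein that binds ribosomal RNA, fell from 23.0 ± 2.23 to 9.42 ± 0.774 CPM in SUDHL6, from 16.5 ± 0.866 to 7.99 ± 0.551 in Farage and from 29.7 ± 1.19 to 4.80 ± 0.555 in SUDHL4. MRPS23, specific to mitochondria, fell from 46.0 ± 1.54 to 19.6 ± 4.82, from 65.5 ± 8.69 to 27.2 ± 1.79 and from 69.1 ± 4.33 to 17.6 ± 1.06 CPM in the same order. NIPSNAP2 overlaps MRPS17 on the same strand. In the mean of the lines the changes were -1.52 (SE 0.0593) for MRPS17 and -1.46 (SE 0.0804) for MRPS23. The change of MRPS23 in SUDHL4 differed from that in Farage by -0.69 (SE 0.197, limma adjusted p = 0.0117).

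MRPS10, the homolog of bacterial S10, was the only small subunit gene called higher in the mean of the lines (log2 0.25, SE 0.0709, limma adjusted p = 0.00347). It went from 52.6, 48.4 and 63.3 CPM to 62.5, 73.3 and 94.9 in SUDHL6 and from 36.9, 40.4 and 36.1 to 45.1, 48.1 and 51.8 in Farage. In SUDHL4 the values were 50.7, 46.9 and 47.7 against 46.8, 47.6 and 45.1. The groups were apart in Farage, overlapped at the edge in SUDHL6 and overlapped throughout in SUDHL4, with log2 changes of 0.34, 0.47 and -0.06 (0.27 in SUDHL4 with edgeR, adjusted p = 0.0464). In Farage the call was lost without DMSO replicate 1 or 3 or without inhibitor replicate 3 (adjusted p = 0.0515, 0.0617 and 0.0727), and in SUDHL6 it was lost when that line was fitted alone (adjusted p = 0.0793).

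**Figure D3:**
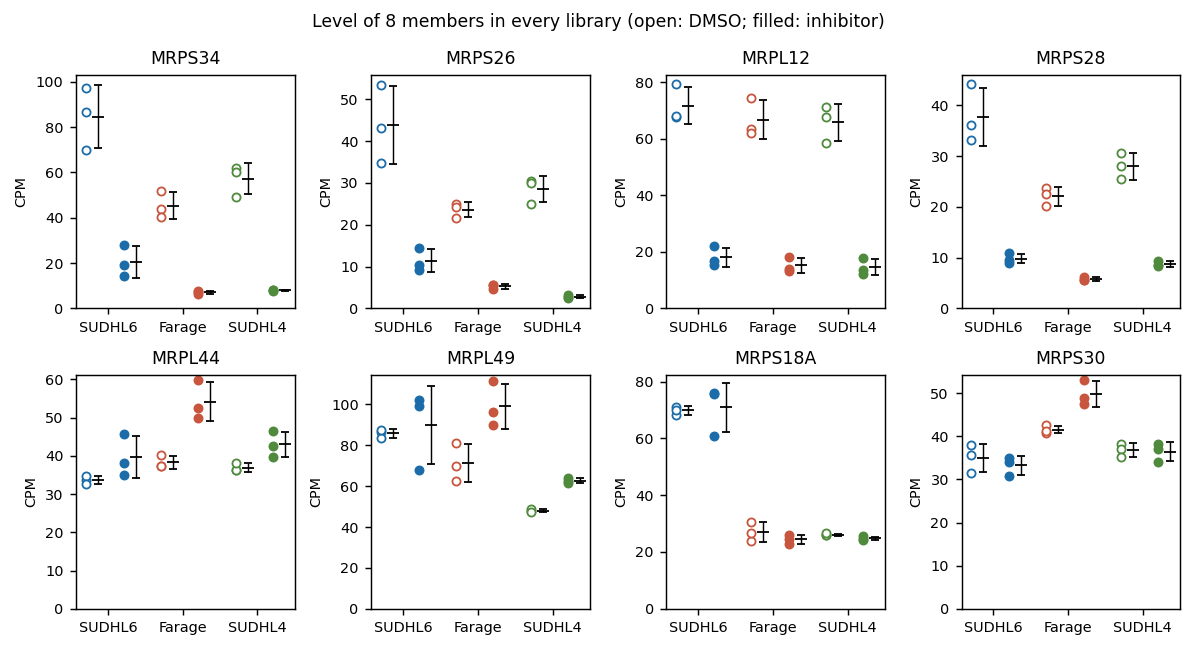
CPM (y axis, from 0) of 8 members in each library of the 3 lines (x axis), with open circles for DMSO, filled circles for inhibitor and bars for mean and SD of 3 libraries. MRPS34, MRPS26, MRPL12 and MRPS28 (top) fell in every line with no overlap, to 2.43 to 28.2 CPM, whereas MRPL44, MRPL49, MRPS18A and MRPS30 (bottom) had no called fall in any line.

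Beside the genes that rose stood members with no call in any line, which were MRPL10, MRPL22, MRPL45, MRPL47, MRPS18A and MRPS22 (named after their values were seen). MRPL10 carries MRPL12 in the ribosomal stalk, and its log2 change in the mean of the lines was 0.06, against -2.04 for MRPL12. MRPL45, which sits at the exit tunnel near the inner membrane, measured 20.4 ± 0.990 and 17.7 ± 3.56 CPM in SUDHL6, 32.9 ± 3.46 and 36.9 ± 3.05 in Farage, and 17.9 ± 0.376 and 20.2 ± 1.43 in SUDHL4. After median-of-ratios scaling MRPL10 and MRPL47 were called higher in each of the 3 lines (log2 0.27 to 0.33 for MRPL10 and 0.34 to 0.39 for MRPL47), MRPL45 in Farage and SUDHL4 (0.40 and 0.45), and MRPS22 and MRPL22 in Farage (0.37 and 0.28). None of these 6 was called lower on the CPM scale in any line.

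The 3 human paralogs of bacterial S18 had different levels and changes. MRPS18A, which structures place in the large subunit, measured 71.1, 68.1 and 70.1 CPM in SUDHL6 with DMSO and 60.9, 76.0 and 75.7 with inhibitor. In Farage it measured 23.7, 30.6 and 26.8 against 24.7, 22.6 and 26.0 CPM, and in SUDHL4 25.9, 26.0 and 26.5 against 24.6, 25.5 and 24.2. The groups overlapped in SUDHL6 and Farage, and none of the log2 changes passed the test (0.01, -0.14 and -0.07), although that in SUDHL4 was 0.22 and passed after median-of-ratios scaling (adjusted p = 0.0276). MRPS18B fell in every line, from 175 ± 11.5 to 100 ± 15.5 CPM in SUDHL6, from 55.1 ± 2.33 to 38.8 ± 2.82 in Farage and from 58.3 ± 3.95 to 41.1 ± 1.496 in SUDHL4. MRPS18C measured 11.2 ± 1.21 and 8.68 ± 0.431 CPM in SUDHL6, 15.2 ± 1.44 and 17.8 ± 0.763 in Farage, and 17.0 ± 0.833 and 14.96 ± 0.894 in SUDHL4. Of these only the SUDHL6 value fell by the test (log2 -0.33, limma adjusted p = 0.00715), and that call was lost with SUDHL6 fitted alone (adjusted p = 0.111). After median-of-ratios scaling it was lost too (-0.16, adjusted p = 0.105), and the Farage change was 0.45 and called (adjusted p = 0.000191). The Farage change on the CPM scale, 0.22, had an adjusted p of 0.0563, and it passed without DMSO replicate 2 of Farage (0.29, adjusted p = 0.0249) and without DMSO replicate 1 or 3 or inhibitor replicate 1 of SUDHL6 (adjusted p = 0.0487, 0.0400 and 0.0473). RSPH9 overlaps MRPS18A, and PPP1R10 overlaps MRPS18B, on the opposite strand.

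MRPS6, the homolog of bacterial S6, was the one member called higher in one line and lower in another. It went from 35.2, 39.2 and 35.3 to 45.3, 45.1 and 47.3 CPM in Farage and from 30.1, 28.2 and 28.4 to 20.2, 24.3 and 18.4 in SUDHL4. In SUDHL6 it measured 27.0, 23.2 and 20.5 against 25.8, 26.6 and 24.04 CPM. The groups were apart in Farage and SUDHL4 and overlapped in SUDHL6 (log2 changes 0.32, -0.45 and 0.12). After median-of-ratios scaling the fall in SUDHL4 was no longer called (-0.16, adjusted p = 0.157) and the SUDHL6 change was (0.29, adjusted p = 0.0182). SLC5A3 overlaps MRPS6 on the same strand.

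MRPS30, despite its symbol a large subunit protein, measured 40.8, 42.6 and 41.3 CPM in Farage with DMSO and 48.8, 47.4 and 53.1 with inhibitor. That rise passed (log2 0.25, limma adjusted p = 0.0110) except without inhibitor replicate 3 of Farage (0.21, adjusted p = 0.0549). In SUDHL6 and SUDHL4 its groups overlapped, at 35.0 ± 3.27 and 33.3 ± 2.20 CPM and at 36.8 ± 1.54 and 36.4 ± 2.20, and the SUDHL4 change (-0.02) was 0.28 after median-of-ratios scaling (adjusted p = 0.00210). MRPS36, which is now known as a part of the 2-oxoglutarate dehydrogenase complex and not of the ribosome, fell in Farage from 17.7 ± 1.40 to 11.8 ± 0.515 CPM and in SUDHL4 from 23.1 ± 0.777 to 16.9 ± 0.703, the latter not called after median-of-ratios scaling (-0.14, adjusted p = 0.147). In SUDHL6 it measured 15.8 ± 0.345 and 13.6 ± 1.96 CPM, a change that passed without inhibitor replicate 3 (log2 -0.29, limma adjusted p = 0.0149, against -0.21 and 0.0719 with it).

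**Figure D4:**
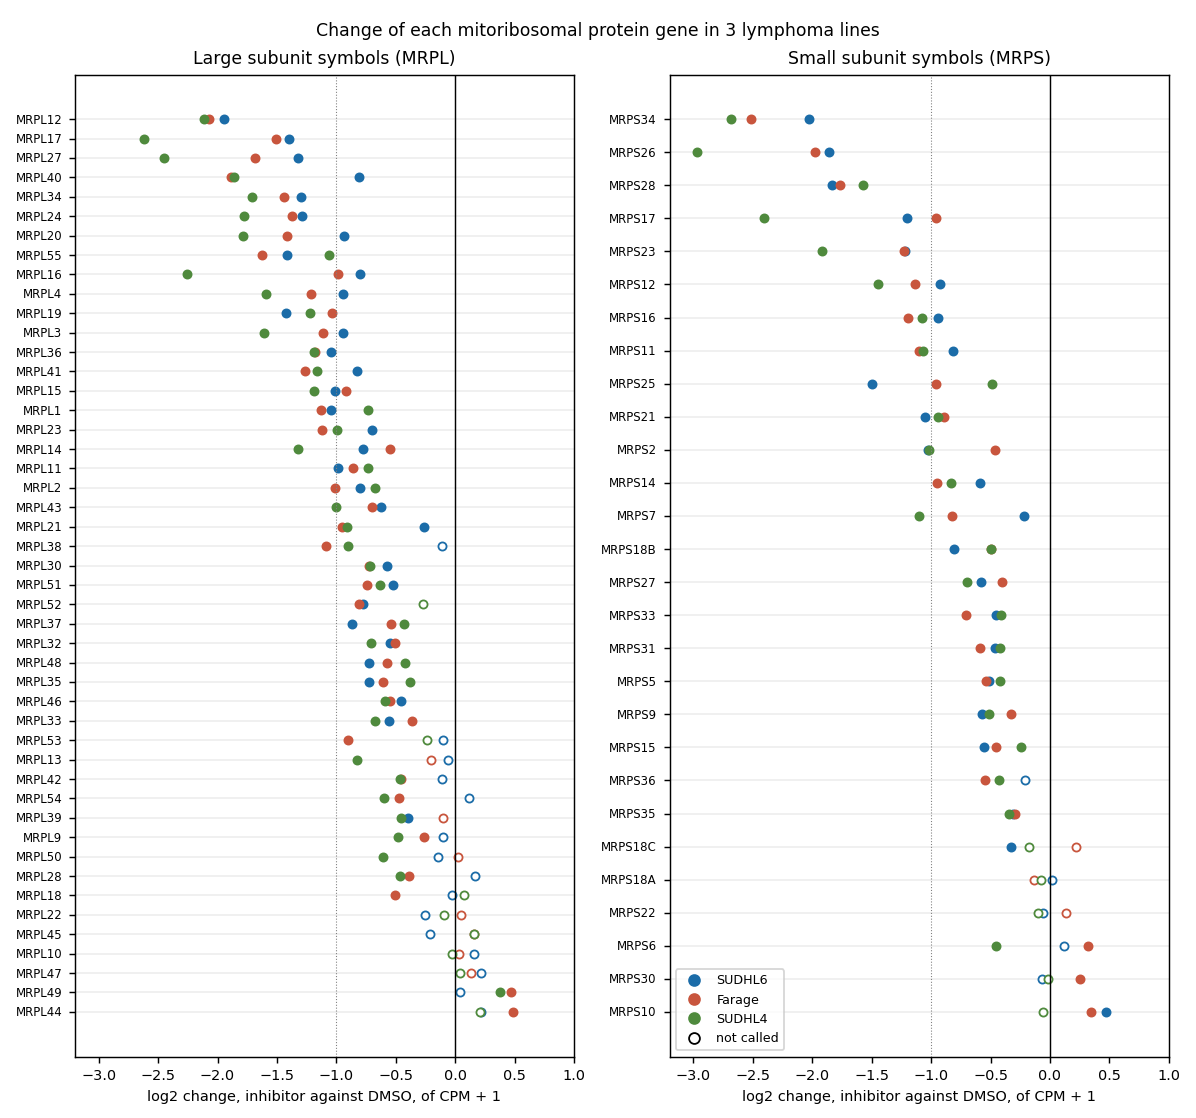
Log2 change of CPM + 1, inhibitor against DMSO (x axis), of the 47 MRPL (left) and 28 MRPS (right) tested members, ordered by the mean of the 3 lines. Colours mark SUDHL6, Farage and SUDHL4, filled points passed the test in that line, open points did not, and the dotted line marks a 2-fold fall; most points lie below 0, from -2.97 for MRPS26 in SUDHL4 to 0.49 for MRPL44 in Farage.

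In the mean of the lines, the order of the subunits differed between the assignment by symbol and that by structure. By symbol the median in the mean of the lines was -0.67 for the large and -0.58 for the small subunit. With MRPS30 and MRPS18A counted in the large subunit and MRPS36 in neither, the medians were -0.63 for 49 large and -0.71 for 25 small subunit genes, the opposite order. In each single line the large subunit had the lower median under both assignments, by structure only narrowly. By symbol the medians were -0.70 and -0.57 in SUDHL6, -0.74 and -0.57 in Farage and -0.72 and -0.50 in SUDHL4 for the large and small subunit. By structure they were -0.63 and -0.59 in SUDHL6, -0.73 and -0.71 in Farage and -0.71 and -0.70 in SUDHL4. Leaving out single libraries moved the large subunit median by symbol over a wider range, -0.76 to -0.64 in SUDHL6. That range was -0.81 to -0.69 in Farage and -0.75 to -0.68 in SUDHL4. It is the range of a single median and not of the difference between the subunits. Medians by structure were not computed without single libraries, so whether their order is stable was not tested. The summed levels by structure stood in a ratio of 1.59 and 1.81 in SUDHL6, 1.82 and 1.86 in Farage and 1.79 and 1.751 in SUDHL4 for DMSO and inhibitor, with overlap between the 2 groups in Farage and SUDHL4.

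Homologs of bacterial proteins had lower medians than mitochondria-specific proteins. Of 46 tested homologs 39 fell and 1 rose in the mean of the lines (median -0.85), and of 28 mitochondria-specific members 23 fell and 2 rose (median -0.55). Of all tested genes 53.8% fell and 30.1% rose. In the large subunit the medians were -0.88 for 31 homologs and -0.47 for 18 specific proteins. In the small subunit the medians were -0.79 for 15 homologs and -0.58 for 10 specific proteins, although the specific MRPS34 and MRPS26 had the largest falls of all 75 members. The order of homologs and specific proteins was the same in SUDHL6, Farage and SUDHL4 (-0.79, -0.91 and -0.93 against -0.46, -0.56 and -0.48). These medians are descriptions without a test.

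The lines differed in how far single members fell. A member's change correlated between lines with a Pearson r of 0.843 for SUDHL6 and Farage, 0.837 for SUDHL4 and Farage and 0.778 for SUDHL6 and SUDHL4 over 75 genes, which are not independent replicates, beside 0.737, 0.737 and 0.776 over all tested genes. The response differed between SUDHL6 and Farage for 16 members, higher in SUDHL6 for 12 and lower for 4 (10 and 12 after median-of-ratios scaling), where 36.8% of all genes differed (21.7% higher and 15.1% lower, or 19.3% and 18.3% after that scaling). Between SUDHL4 and Farage it differed for 19, higher in SUDHL4 for 5 and lower for 14 (8 and 13 after that scaling), where 37.4% of all genes did (17.7% higher and 19.7% lower, or 20.6% and 18.6%). Between SUDHL6 and SUDHL4 it differed for 25, higher in SUDHL6 for 21 and lower for 4 (19 and 10), where 35.0% of all genes did (22.5% higher and 12.5% lower, or 17.3% and 17.0%). Each line's DMSO libraries enter 2 of these comparisons.

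These counts moved when single libraries were left out. In SUDHL6 against Farage the 4 became 7 without inhibitor replicate 2 and 9 without inhibitor replicate 3 of SUDHL6, and the 12 became 7 without DMSO replicate 2 or inhibitor replicate 1 of Farage. In SUDHL4 against Farage the 5 became 3 without DMSO replicate 2 or inhibitor replicate 1 of Farage and without DMSO replicate 3 or inhibitor replicate 2 of SUDHL4. In SUDHL6 against SUDHL4 the 4 became 8 without inhibitor replicate 2 of SUDHL6 and 2 without DMSO replicate 3 of SUDHL6, without any one DMSO library of SUDHL4, or without inhibitor replicate 1 or 2 of SUDHL4.

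MRPL16, which helps to form the tRNA binding sites of the large subunit, fell much further in SUDHL4. There it went from 75.5, 76.6 and 65.02 to 12.5, 14.6 and 15.9 CPM, a log2 change of -2.26. In SUDHL6 it went from 40.0, 41.0 and 40.1 to 19.2, 26.9 and 22.7 CPM and in Farage from 48.5, 54.2 and 49.0 to 23.2, 23.8 and 28.5. SUDHL4 started highest and ended lowest. Its change in SUDHL4 differed from that in Farage by -1.28 (SE 0.167, limma adjusted p = 1.85e-05), and the change in SUDHL6 was higher than in SUDHL4 by 1.46 (SE 0.167, adjusted p = 8.73e-06). MRPS17 likewise fell further in SUDHL4 than in Farage (difference -1.45, SE 0.145, adjusted p = 1.09e-06), as did MRPL17 (-1.11, SE 0.172, adjusted p = 9.75e-05).

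MRPL38, a mitochondria-specific protein of the large subunit, fell in Farage and SUDHL4 and had no detected change in SUDHL6. It measured 64.5, 68.8 and 60.3 CPM with DMSO and 57.5, 62.9 and 58.6 with inhibitor there. In Farage it fell from 42.4, 48.5 and 43.7 to 19.2, 19.8 and 23.0 CPM and in SUDHL4 from 38.0, 38.5 and 30.4 to 17.97, 18.5 and 19.0. The SUDHL6 groups overlapped and those of the other two lines lay far apart (log2 changes -0.11, -1.09 and -0.90). The change in SUDHL6 was higher than in Farage by 0.98 (SE 0.137, limma adjusted p = 4.42e-05). Noncoding genes overlap MRPL38 on both strands.

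MRPS7, which binds in the head of the small subunit, and MRPL21 also fell less in SUDHL6. MRPS7 went from 83.2, 75.9 and 79.1 to 65.3, 68.2 and 70.7 CPM in SUDHL6, from 65.3, 69.0 and 65.5 to 35.2, 36.1 and 40.4 in Farage and from 60.5, 62.1 and 54.6 to 27.7, 26.7 and 26.7 in SUDHL4. The groups lay apart in all 3 lines, with the smallest change in SUDHL6. Its change in SUDHL6 was higher by 0.60 than in Farage (SE 0.101, limma adjusted p = 0.000218) and by 0.88 than in SUDHL4 (adjusted p = 9.11e-06). The fall in SUDHL6 itself (-0.22) was -0.04 after median-of-ratios scaling (adjusted p = 0.574) and no longer called. MRPL21 fell from 28.5 ± 1.64 to 23.5 ± 0.115 CPM in SUDHL6 and from 33.8 ± 4.35 to 16.9 ± 0.296 in Farage, a difference in log2 change of 0.69 (SE 0.130, adjusted p = 0.000636). Its change in SUDHL6 (-0.26) was also not called after median-of-ratios scaling (-0.09, adjusted p = 0.384).

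MRPS25, a mitochondria-specific protein, fell further in SUDHL6 than in SUDHL4. It went from 119, 104 and 102 to 39.6, 38.0 and 35.5 CPM in SUDHL6, from 99.7, 101 and 104 to 52.1, 51.1 and 51.7 in Farage and from 82.6, 80.2 and 76.4 to 57.1, 63.6 and 49.4 in SUDHL4. With inhibitor SUDHL6 was lowest, with DMSO its libraries overlapped those of Farage, and no groups overlapped within a line. The change in SUDHL6 differed from that in SUDHL4 by -1.01 (SE 0.119, limma adjusted p = 1.12e-05). The SUDHL4 change itself (-0.49) was not called after median-of-ratios scaling (-0.19, adjusted p = 0.0630).

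**Figure D5:**
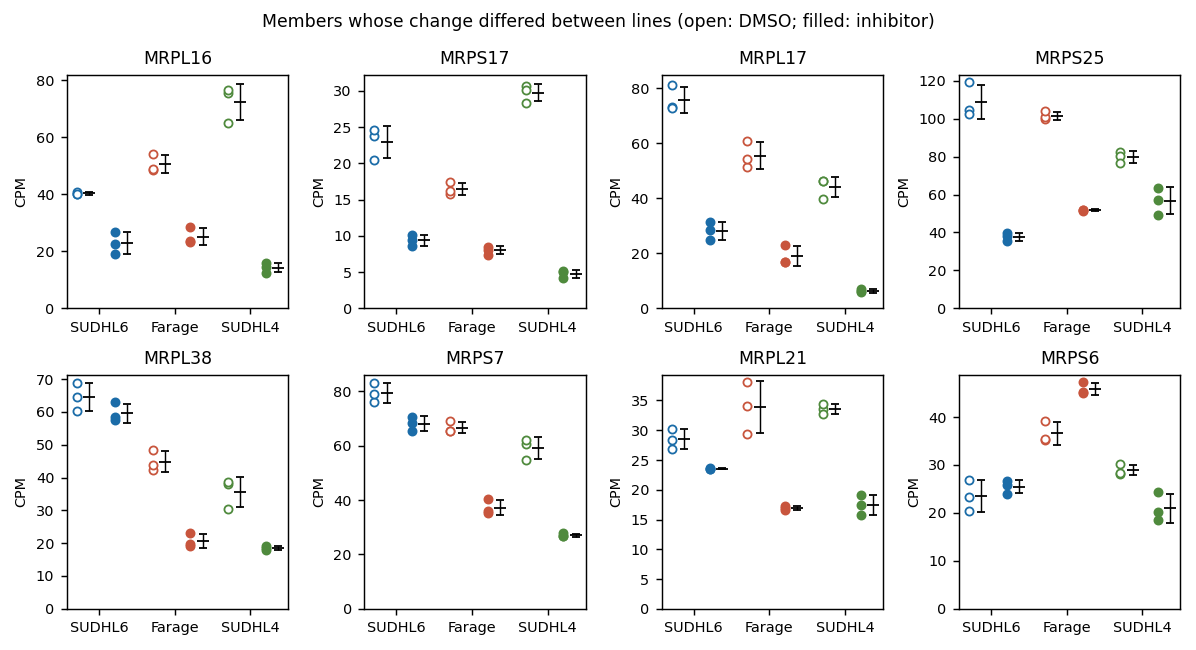
CPM (y axis, from 0) of 8 members in each library of the 3 lines (x axis), with open circles for DMSO, filled circles for inhibitor and bars for mean and SD of 3 libraries. MRPL16, MRPS17 and MRPL17 reached their lowest levels in SUDHL4 with inhibitor (means of 14.3, 4.80 and 6.37 CPM), MRPS25 in SUDHL6 (37.7 CPM), and MRPS6 rose in Farage while it fell in SUDHL4, a fall not called after median-of-ratios scaling.

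With DMSO, the lines also differed in the levels of single members, as they did for 67.1% to 71.3% of all tested genes. Farage was lower than SUDHL6 for 35 members and higher for 15 (27 and 20 after median-of-ratios scaling), where 37.5% and 33.8% of all genes were (33.1% and 37.6% after it). Farage was lower than SUDHL4 for 24 and higher for 15 (31.1% and 36.0%), and SUDHL6 was higher than SUDHL4 for 31 and lower for 22 (38.5% and 30.1% of all genes, 68.6% in either direction), or 27 and 32 after that scaling (33.7% and 34.3% of all genes). Leaving out DMSO replicate 2 of Farage brought the 15 higher than SUDHL4 to 9. The summed levels of all 76 coding members were 4316 ± 47.6 CPM in SUDHL6, 3559 ± 230 in Farage and 4012 ± 166 in SUDHL4. On this scale the SUDHL6 libraries lay above all of the others. Their median-of-ratios factors were also higher (1.12 to 1.19, against 1.05 to 1.10 for the others). Divided by these factors, the SUDHL6 sums would still lie above those of Farage but would overlap those of SUDHL4.

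MRPS18B and MRPL14 stood out in SUDHL6. MRPS18B measured 188, 170 and 167 CPM there, 52.4, 56.5 and 56.4 in Farage and 58.6, 62.2 and 54.3 in SUDHL4. MRPL14, which lies at the interface with the small subunit, measured 117, 112 and 120 CPM in SUDHL6, 39.6, 46.1 and 40.8 in Farage and 46.9, 47.4 and 44.0 in SUDHL4. Both were thus far above the other two lines in every SUDHL6 library. Farage differed from SUDHL6 by a log2 value of -1.65 (SE 0.0973, limma adjusted p = 1.35e-10) for MRPS18B and by -1.45 (SE 0.0886) for MRPL14. MRPL2, a core protein of the peptidyl transferase region, was also higher in SUDHL6, at 59.1 ± 7.04 CPM, than in SUDHL4, at 21.5 ± 0.850 (log2 difference 1.41, SE 0.121). TMEM63B overlaps MRPL14 on the opposite strand.

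Other members were lowest in SUDHL6 or highest in a single other line. MRPL1, part of the side stalk of the large subunit, measured 10.1 ± 0.597 CPM in SUDHL6, 30.04 ± 3.07 in Farage and 20.8 ± 1.99 in SUDHL4. MRPL3, a core protein of the large subunit, measured 82.7 ± 4.94 CPM in SUDHL6, 122 ± 11.4 in Farage and 176 ± 11.3 in SUDHL4. MRPS33 measured 66.3 ± 1.80 CPM in SUDHL4, against 30.9 ± 2.21 in SUDHL6 and 32.4 ± 2.72 in Farage, and the libraries of SUDHL6 and Farage overlapped. MRPL4, which lines the exit tunnel, was highest in SUDHL4 (170 ± 22.1 CPM, against 85.5 ± 6.90 in Farage). MRPL39 and MRPL45 were highest in Farage, at 75.2 ± 5.62 and 32.9 ± 3.46 CPM against 36.8 ± 1.72 and 17.9 ± 0.376 in SUDHL4.

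Per kilobase of exon, members spanned a wide range of levels within a line. With DMSO the median over 75 members was 33.5 CPM per kilobase in SUDHL6, 23.8 in Farage and 24.96 in SUDHL4. The highest were MRPL14 in SUDHL6 (121 ± 4.08 CPM per kilobase) and MRPS15 in Farage and SUDHL4 (69.8 ± 5.41 and 100 ± 3.61). The lowest were MRPL42 in SUDHL6 and Farage (4.58 ± 0.428 and 5.08 ± 0.376) and MRPS11 in SUDHL4 (6.95 ± 0.505). MRPL42 and MRPS11 in SUDHL4 did not differ beyond their spread (6.97 ± 0.350 and 6.95 ± 0.505). Lengths are those of all annotated exons joined, so a gene with a long rare transcript comes out low. MRPS15, MRPL42 and MRPS11 were named after their values were seen.

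The promoters of members that fell most and of members that did not are shown to compare the motifs they hold. Windows of 300 bases, 250 before and 50 from the start site, were found in RefSeq (GRCh38.p14) for 67 of the 76 coding members. Each line gives the 150 bases before the start on the gene's own strand, 5′ to 3′, and capitals mark matches on either strand to the ETS core CCGGAAG that GABP binds, to GCGCATG of NRF1, to AAGATGG of YY1, to CACGTG (E-box) or to GGGCGG (GC box). The first 4 genes fell most in their subunit among those with any match, and the last 4 did not fall in the mean of the lines.
MRPS34, chr16:1773135-1773284, minus strand: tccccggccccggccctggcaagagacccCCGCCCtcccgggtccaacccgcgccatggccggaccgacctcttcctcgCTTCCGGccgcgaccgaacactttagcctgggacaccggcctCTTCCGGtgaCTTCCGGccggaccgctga
MRPS26, chr20:3045902-3046051, plus strand: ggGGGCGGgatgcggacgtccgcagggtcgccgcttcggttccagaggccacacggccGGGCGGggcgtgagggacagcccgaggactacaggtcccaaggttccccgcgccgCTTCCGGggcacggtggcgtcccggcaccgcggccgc
MRPL17, chr11:6683341-6683490, minus strand: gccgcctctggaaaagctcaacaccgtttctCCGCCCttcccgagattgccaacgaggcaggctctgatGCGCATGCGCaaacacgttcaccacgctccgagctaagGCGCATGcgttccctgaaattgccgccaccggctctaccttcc
MRPL27, chr17:50373185-50373334, minus strand: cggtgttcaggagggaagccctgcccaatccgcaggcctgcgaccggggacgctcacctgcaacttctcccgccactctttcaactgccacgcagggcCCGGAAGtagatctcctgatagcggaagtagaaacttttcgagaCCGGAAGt
MRPL44, chr2:223957313-223957462, plus strand: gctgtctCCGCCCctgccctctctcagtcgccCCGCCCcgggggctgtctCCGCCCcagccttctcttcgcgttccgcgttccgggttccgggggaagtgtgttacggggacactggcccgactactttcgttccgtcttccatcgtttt
MRPL49, chr11:65122033-65122182, plus strand: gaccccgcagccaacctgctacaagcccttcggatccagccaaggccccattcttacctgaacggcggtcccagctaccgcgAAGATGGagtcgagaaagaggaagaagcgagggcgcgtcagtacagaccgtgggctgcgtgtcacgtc
MRPS10, chr6:42217862-42218011, minus strand: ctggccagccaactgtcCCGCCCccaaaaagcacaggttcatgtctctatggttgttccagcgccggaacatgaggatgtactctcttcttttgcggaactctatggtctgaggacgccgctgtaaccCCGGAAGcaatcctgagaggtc
MRPS18A, chr6:43687792-43687941, minus strand: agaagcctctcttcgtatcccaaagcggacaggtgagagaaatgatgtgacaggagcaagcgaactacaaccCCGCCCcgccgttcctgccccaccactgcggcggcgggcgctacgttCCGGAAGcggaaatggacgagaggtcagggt

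MRPS34 holds 3 ETS matches and MRPL27 holds 2, but MRPS10 and MRPS18A hold 1 each as well. The NRF1 letters occur 3 times in MRPL17, of which 2 overlap as one palindrome. MRPL12, the large subunit gene that fell most, holds none of these motifs in its window. The ETS core was found in 41.8% of the 67 member windows, against 19.6% of the 8891 windows of tested genes and 10.7% of all 27305 windows in the table. Among members it was found in 10 of the 20 that fell at least 2-fold and in 18 of the 46 other tested ones. The YY1 letters were found in 34.3% of member windows against 7.97% of tested genes, and 16 of their 24 matches lay at or after the start site. They were in 4 of the 20 and 18 of the 46. The NRF1, E-box and GC box letters were found in 10.45%, 8.96% and 61.2% of member windows, against 8.01%, 10.3% and 69.2% of tested genes. No match shows binding, and none of these shares was tested.

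Members are short genes with few exons. Over the 75 tested members the median transcript had 5 exons and 1532 bases, against 9 exons and 3451 bases over 10913 tested genes with a gene model (GENCODE 29). The 22 members that fell at least 2-fold had a median of 3.5 exons and a GC content of 53.5%, against 48.5% for the other 53 and for all genes. Across members the log2 change correlated with the number of exons (Spearman rho 0.333) and with GC content (-0.351), where the same values over all genes were -0.03 and -0.19. Genes are not independent, and these are descriptions.

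Of the 75 members, 16 (21.3%) start within 1000 bases of a coding gene on the other strand that runs away from them, against 9.86% of all genes. MRPL46 and MRPS11 face each other this way at 34 bases, and both fell in the mean of the lines (log2 -0.53 and -0.99). MRPS34 lies 52 bases from EME2, which fell by 0.57 where MRPS34 fell by 2.41. MRPL36 lies 34 bases from NDUFS6, a subunit of respiratory complex I, and both fell (-1.14 and -0.92). MRPL50, by contrast, fell by 0.245 (not called after median-of-ratios scaling, -0.01) beside ZNF189, which rose by 1.01, and MRPL21 fell by 0.71 beside IGHMBP2, which rose by 0.42. Of 15 tested neighbours 7 fell and 4 rose, where 53.8% and 30.1% of all genes did. The 7 include MRPL46 and MRPS11, which are members themselves and each other's neighbour. Pairs named here were chosen after their values were seen.

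The 7 mitoribosomal subunits with other names all fell in the mean of the lines (median -0.83), where 53.8% of all genes fell. MRP63, now called MRPL57, fell from 32.1 ± 3.49 to 14.5 ± 3.35 CPM in SUDHL6, from 20.5 ± 1.97 to 5.29 ± 0.824 in Farage and from 28.2 ± 3.201 to 4.12 ± 0.837 in SUDHL4. GADD45GIP1, at the exit tunnel, changed by -1.01 in the mean of the lines. ICT1, a peptidyl-tRNA hydrolase built into the large subunit, CHCHD1, PTCD3 and AURKAIP1 changed by -0.83, -0.83, -0.74 and -0.64, although the ICT1 fall in Farage (-0.51) was not called after median-of-ratios scaling (-0.28, limma adjusted p = 0.0561). The AURKAIP1 fall in SUDHL6 (-0.31, limma adjusted p = 0.0246) was lost without DMSO replicate 2 (adjusted p = 0.120) or inhibitor replicate 3 (adjusted p = 0.0921), with SUDHL6 fitted alone (0.0610), after median-of-ratios scaling (-0.14, adjusted p = 0.276) and on recovered reads with edgeR (0.378) and DESeq2 (0.327). DAP3, a GTP-binding protein of the small subunit, fell least, at -0.36, and was not called in Farage or SUDHL4 after median-of-ratios scaling (-0.06 and -0.05).

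Most genes that build the mitochondrial ribosome also fell. Of 23 tested assembly factors 20 fell and 1 rose in the mean of the lines (15 and 4 after median-of-ratios scaling), with a median of -0.92. Of all genes 53.8% fell and 30.1% rose (44.3% and 39.4% after that scaling). MRM1, which methylates the large ribosomal RNA, fell from 24.4 ± 4.03 to 1.98 ± 0.601 CPM in SUDHL6, from 9.92 ± 0.453 to 0.422 ± 0.128 in Farage and from 11.8 ± 1.80 to 0.365 ± 0.0302 in SUDHL4. RBFA, which matures the small subunit, fell from 28.5 ± 4.30 to 3.76 ± 1.59, from 18.9 ± 1.02 to 2.61 ± 0.147 and from 23.8 ± 1.97 to 3.54 ± 0.361 CPM. FASTKD2, which binds mitochondrial RNA, and the GTPase MTG1 fell by 1.86 and 1.40 on the log2 scale. In the mean of the lines MRM1 (-3.09) and RBFA (-2.53) changed more than any member.

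Of 16 tested translation factors 12 fell and 2 rose in the mean of the lines (median -0.48), or 10 and 3 after median-of-ratios scaling, where 53.8% and 30.1% of all genes did (44.3% and 39.4%). TUFM, the elongation factor that delivers tRNA, fell from 341 ± 15.4 to 219 ± 4.51 CPM in SUDHL6, from 245 ± 12.9 to 140 ± 10.2 in Farage and from 347 ± 29.1 to 210 ± 10.5 in SUDHL4. TSFM, its exchange factor, fell by 1.01 on the log2 scale. GFM1, the translocase, fell from 118 ± 2.06 to 73.2 ± 4.46 CPM in Farage and from 114 ± 5.72 to 47.3 ± 2.27 in SUDHL4, and measured 74.4 ± 5.35 and 71.9 ± 6.58 in SUDHL6, with overlap. OXA1L, which inserts nascent chains into the inner membrane, fell by 0.78 and 0.74 in SUDHL6 and Farage, and its -0.23 in SUDHL4 was 0.07 after median-of-ratios scaling.

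Of 13 tested genes for copying and processing mitochondrial DNA and RNA 11 fell and 1 rose in the mean of the lines (8 and 2 after median-of-ratios scaling), with a median of -0.83, beside the same shares of all genes as above. POLRMT, the mitochondrial RNA polymerase, which MRPL12 is known to bind, fell from 51.2 ± 5.59 to 23.2 ± 5.93 CPM in SUDHL6, from 35.5 ± 2.09 to 7.95 ± 1.33 in Farage and from 28.7 ± 4.29 to 5.68 ± 0.776 in SUDHL4. ELAC2, which trims tRNA ends, fell by 1.60 and PNPT1, an exoribonuclease, by 1.354 on the log2 scale. C10orf2, the helicase Twinkle, fell from 51.8 ± 5.36 to 7.31 ± 1.38 CPM in SUDHL4, and by only 0.40 on the log2 scale in Farage, a call lost after median-of-ratios scaling (-0.16, limma adjusted p = 0.178).

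Nuclear regulators of mitochondrial genes changed in both directions. Of 11 tested 6 rose and 4 fell in the mean of the lines (median 0.23), or 7 and 3 after median-of-ratios scaling, where 30.1% and 53.8% of all genes did (39.4% and 44.3%). GABPB1, a subunit of the ETS factor GABP, rose from 25.5 ± 1.08 to 59.7 ± 2.67 CPM in SUDHL6, from 45.6 ± 2.24 to 98.4 ± 3.93 in Farage and from 28.9 ± 3.18 to 58.9 ± 1.81 in SUDHL4. The other genes that rose, named after their values were seen, were GABPA, GABPB2, NRF1, YY1 and CREB1. MYC fell from 343 ± 22.2 to 125 ± 9.26 CPM in SUDHL6 and from 379 ± 47.2 to 26.6 ± 0.741 in SUDHL4. In Farage MYC measured 178 ± 10.3 and 148 ± 17.7 CPM, a fall (log2 -0.27, limma adjusted p = 0.0207) that was lost without DMSO replicate 2 (adjusted p = 0.0836), inhibitor replicate 1 (0.06855) or inhibitor replicate 2 (0.105), and after median-of-ratios scaling (-0.03). The coactivators PPARGC1B and PPRC1 fell by 2.31 and 1.003 on the log2 scale in the mean of the lines.

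The symbols that are not subunits followed their own course at low levels. MRPL42P5, a pseudogene derived from MRPL42, rose from 0.809, 0.793 and 0.428 to 1.98, 1.38 and 2.05 CPM in SUDHL6, from 0.943, 0.851 and 0.868 to 2.05, 1.85 and 1.84 in Farage and from 0.766, 1.11 and 1.11 to 1.73, 1.96 and 1.34 in SUDHL4. The groups lay apart in all 3 lines, but reads of such a copy may have been split with its parent. MRPL23-AS1 lay between 0 and 1.77 CPM and had no called change with inhibitor, and MRPL45P2 lay between 0 and 0.683 CPM. MRPS24 lay between 0 and 1.51 CPM in every library. The readthrough symbol URGCP-MRPS24 is listed as a gene of its own, so the level of the MRPS24 protein's message cannot be read from the symbol alone.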

How the data were processed

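RNA-seq of 3 lymphoma cell lines, 6 groups of 3 libraries, was analysed per gene. The authors deposited CPM (reads of a gene per 1000000 reads) for 23250 RefSeq symbols, and per the submitters' processing notes reads were aligned with STAR to hg19. One label names Rsubread, and the kit was TruSeq, per the labels' protocols. For versions, annotation release and counting strand: not given in the sources used here. The deposited CPM were 100% whole multiples of 1 read (within 0.01 reads), which gave the read counts back.

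The main test was limma 3.58.1 (trend, R 4.3.3) on log2(CPM + 1), fitted over 6 group means and all 12769 genes with at least 1 CPM in at least 3 libraries. P-values were adjusted by the Benjamini-Hochberg method, with a threshold of 0.05. Alternatives were a pseudocount of 0.25, no filter, a mean of at least 5 CPM, median-of-ratios scaling, a replicate block, only the compared lines, leaving out libraries, edgeR 4.0.16 and DESeq2 1.42.0 on the recovered reads, and subunits assigned by structure. The limma and edgeR fits, but not DESeq2, were run on simulated data. There few genes changed, in a single group and as many up as down. These data have a broad shift that the simulation lacks, so it does not test the calls that depend on scaling. Replicate numbers paired the libraries in SUDHL6, where same-numbered deviations correlated at 0.42, 0.49 and 0.63, and not in Farage (0.17, -0.13 and -0.19) or SUDHL4 (-0.05, 0.03 and -0.07).

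Members with a mean of at least 2 CPM were named as follows: per subunit the 5 largest falls and up to 5 rises called in the mean of the lines, in each line the 3 largest non-overlapping called changes per direction, for each pair of lines the 3 response differences of smallest p and the 2 largest DMSO differences per direction. MRPL12, MRPS6, the S18 paralogs, MRPS30, MRPS36, the 7 subunits of other names, up to 4 genes of each pathway list, and untested or noncoding members were always named. Members, subunit classes, gene lists and motifs were chosen with earlier results of these data known, so they are not independent of them. Gene models are GENCODE 29 and promoter windows RefSeq GRCh38.p14, both used apart from the authors' build. Tables used Python 3.11.15 with pandas 2.3.3, numpy 2.4.6 and scipy 1.17.1.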

Additional observations from a re-analysis of the deposited data

Results flagged for a closer look

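The response to inhibitor differed for 16, 19 and 25 of 75 members between SUDHL6 and Farage, SUDHL4 and Farage, and SUDHL6 and SUDHL4. Of all tested genes 36.8%, 37.4% and 35.0% differed, so such calls were no more frequent among members. Calls are by the limma test of the difference (adjusted p under 0.05 over all tested genes). The 3 members of smallest p in each pair are given here. MRPL38, MRPL21 and MRPS7 had a higher log2 change in SUDHL6 than in Farage, by 0.9757, 0.6873 and 0.604. MRPS17, MRPL16 and MRPL17 had a lower change in SUDHL4 than in Farage, by -1.4514, -1.2769 and -1.1094. MRPL16 and MRPS7 had a higher change in SUDHL6 than in SUDHL4, by 1.4601 and 0.8784, whereas MRPS25 had a lower one, by -1.0086. Since these members were chosen by their p, the sizes are a description of these libraries.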

How the results depend on the processing

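Counts of members called lower stayed within 1.5 times in each line under every alternative, from 52 to 57 in SUDHL6 when single libraries were left out, although in SUDHL4 the small subunit genes called lower went from 23 to 15 after median-of-ratios scaling. Levels under 0.362 CPM rest on 3 reads or fewer in the shallowest library. Values given in threes are for median-of-ratios scaling, edgeR and DESeq2. Members called higher became 7, 8 and 8 in SUDHL6, 12, 12 and 12 in Farage, 8, 10 and 9 in SUDHL4 and 11, 12 and 12 in the mean of the lines. In SUDHL6 they were 2 with a mean of at least 5 CPM, 2 with the replicate block and 0 with that line fitted alone, and in SUDHL4 2 with that line fitted alone or without both shallow SUDHL6 libraries. The block pairs libraries of the same replicate number in all 3 lines, although deviations went with that number in SUDHL6 only. It changed no other call of a named gene in SUDHL6. Leaving out single libraries gave a range of 1 to 4 higher for SUDHL6, 3 to 6 for Farage and 1 to 2 for SUDHL4.

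The large subunit median became -0.5272, -0.4974 and -0.5113 in SUDHL6, -0.4979, -0.5073 and -0.4936 in Farage, -0.4218, -0.4069 and -0.4192 in SUDHL4 and -0.4361, -0.4342 and -0.4392 in the mean. The small subunit median became -0.3998, -0.3888 and -0.4017, then -0.3358, -0.3549 and -0.3399, then -0.2084, -0.1925 and -0.2048, and -0.3413, -0.3319 and -0.3364. Assigned by structure it was -0.7105 in Farage, -0.6972 in SUDHL4 and -0.7139 in the mean. Leaving out single libraries gave -0.5683 to -0.4857 in SUDHL4.

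Responses lower in SUDHL6 than Farage numbered 12, 10 and 13, 8 without both shallow libraries and 3 to 9 without single libraries, with 7 to 16 higher. Responses in SUDHL4 against Farage numbered 8, 9 and 9 higher and, with those lines fitted alone, 9 higher and 26 lower, with 3 to 7 higher without single libraries. Responses lower in SUDHL6 than SUDHL4 numbered 10, 11 and 12, 2 with no filter, 1 with those lines fitted alone and 2 to 8 without single libraries. DMSO levels higher in Farage than SUDHL4 numbered 9 to 16 without single libraries. Turns of sign are listed where the main or the alternative fit called the change. Uncalled turns after median-of-ratios scaling are left out, such as MRPS10 (0.2383) and MRPS18C (0.1107) in SUDHL4 and MRPS18A in Farage (0.1007). Signs turned in SUDHL4 for MRPS10 (edgeR, 0.2654), MRPS18A (0.2176, 0.2483 and 0.2366), MRPS30 (0.276, 0.3084 and 0.2976) and OXA1L (0.0687, 0.0902 and 0.0779). In the mean they turned for MRPS18A (0.1694, 0.1858 and 0.1818), MRPS18C (0.1319, 0.1462 and 0.1387) and MRPS6 (0.2283, 0.2493 and 0.2441). The cause was not tested, beyond that these methods scale by the typical gene.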
